A study of Mus musculus with 12 samples.

Results

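Transcripts of 10 genes for CD28 family receptors, coinhibitory receptors and related ligands were followed in CD4+ T cells from the Peyer's patches of mice. The genes were Pdcd1, Icos, Cd28, Ctla4, Btla, Tigit, Lag3, Cd160, Cd274 and Cd200, chosen by name, with earlier results of these data known. They are 10 of the 19937 genes with a probe set of their own on the array, and each had 1 such probe set. Of these genes 11240 lay above the array median on at least 3 arrays and were tested, the 10 receptor and ligand genes among them. Cd160 exceeded the array median on 7 of the 12 arrays, of which 6 were all the Tfh arrays, and the other 9 genes on all 12, so Cd160 passed this filter mainly through the groups in which it was higher.

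The cells came from mice with an IL-21eGFP bacterial artificial chromosome transgene, in which green fluorescent protein (GFP) marks transcription of the interleukin 21 gene. All 4 groups carried this transgene and had no other treatment in the labels. The sorting protocol describes CD4+ cells negative for class II and Epcam and names the GFP+ Tfh, GFP- Tfh and CXCR5-PD1- gates; the CXCR5+PD1- gate is known here from its labels alone. The groups were GFP+ CXCR5+PD1+ T follicular helper cells (GFP+ Tfh), GFP- CXCR5+PD1+ T follicular helper cells (GFP- Tfh), CXCR5+PD1- cells and CXCR5-PD1- cells, with 3 Affymetrix arrays each. The titles label both PD1- groups GFP- as well, so GFP+ Tfh differ from them in the GFP label too. The labels give neither the age of the mice nor whether the 3 replicates of a group were different animals. A p-value therefore covers only the spread among these samples, which may be technical.

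T cells act fully on antigen when a costimulatory signal joins that of the antigen receptor. CD28 and ICOS give such signals when B cells or dendritic cells show CD80, CD86 or the ICOS ligand, while CTLA-4, PD-1, BTLA, TIGIT, LAG-3 and CD160 mostly restrain the cell, by competing for a ligand or by recruiting phosphatases and other inhibitory proteins to their tails. Tfh cells, which help B cells in germinal centres, are known for high ICOS and PD-1, and in Peyer's patches germinal centres are active throughout life because of gut microbes.

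Values are log2 expression after RMA, and a gene is compared only with itself, since probe sets differ in brightness. Several facts of the samples bear on what follows. The titles and the sorting protocol give the GFP+ arrays as CXCR5+ and PD1+, while their characteristics say CXCR5- and PD1-. Titles were used for grouping. Cxcr5 ranged from 8.62 to 9.14 on the GFP+ Tfh arrays and from 7.91 to 8.61 on the GFP- Tfh arrays, against 5.19 to 5.87 in CXCR5+PD1- cells and 5.36 to 6.19 in CXCR5-PD1- cells, so its RNA did not separate the PD1- gates from each other. By Xist and Eif2s3y, replicate 3 of every group was female and replicates 1 and 2 were male. The GFP+ Tfh arrays lay farther from their group mean (root mean square deviation 0.287 to 0.405) than the other 9 arrays (0.163 to 0.204). The 8 T cell identity genes had a median 4.56 to 4.94 above the array median on all arrays, and the B cell genes on the array had medians of -1.19 to -0.40 relative to it. Of the 8 T cell identity genes 3 rose in both Tfh gates over both PD1- gates, against 5.05% of all genes tested. These were Zap70 (0.65), Cd4 (0.53) and Cd3g (0.32).

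Both Tfh gates together were first set against both PD1- gates. Of the 10 genes 9 rose in Tfh cells and 0 fell, and Cd28 did not pass the test. Over all genes tested, 5.05% were higher, 5.33% were lower and 10.4% differed in either direction at adjusted p under 0.05. For 7 of the genes every Tfh array lay above every PD1- array, which held for 3.49% of all genes. The median difference was 1.16 over the 10 genes and -0.016 over all genes. Pdcd1 encodes PD-1, the protein used to sort these gates, so its higher level in Tfh cells describes the sort. Pdcd1 is among the 9 and the 7 genes counted above, and its difference enters the median of 1.16. These are bulk samples, in which fewer cells of a type and less RNA per cell cannot be told apart.

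**Figure D1:**
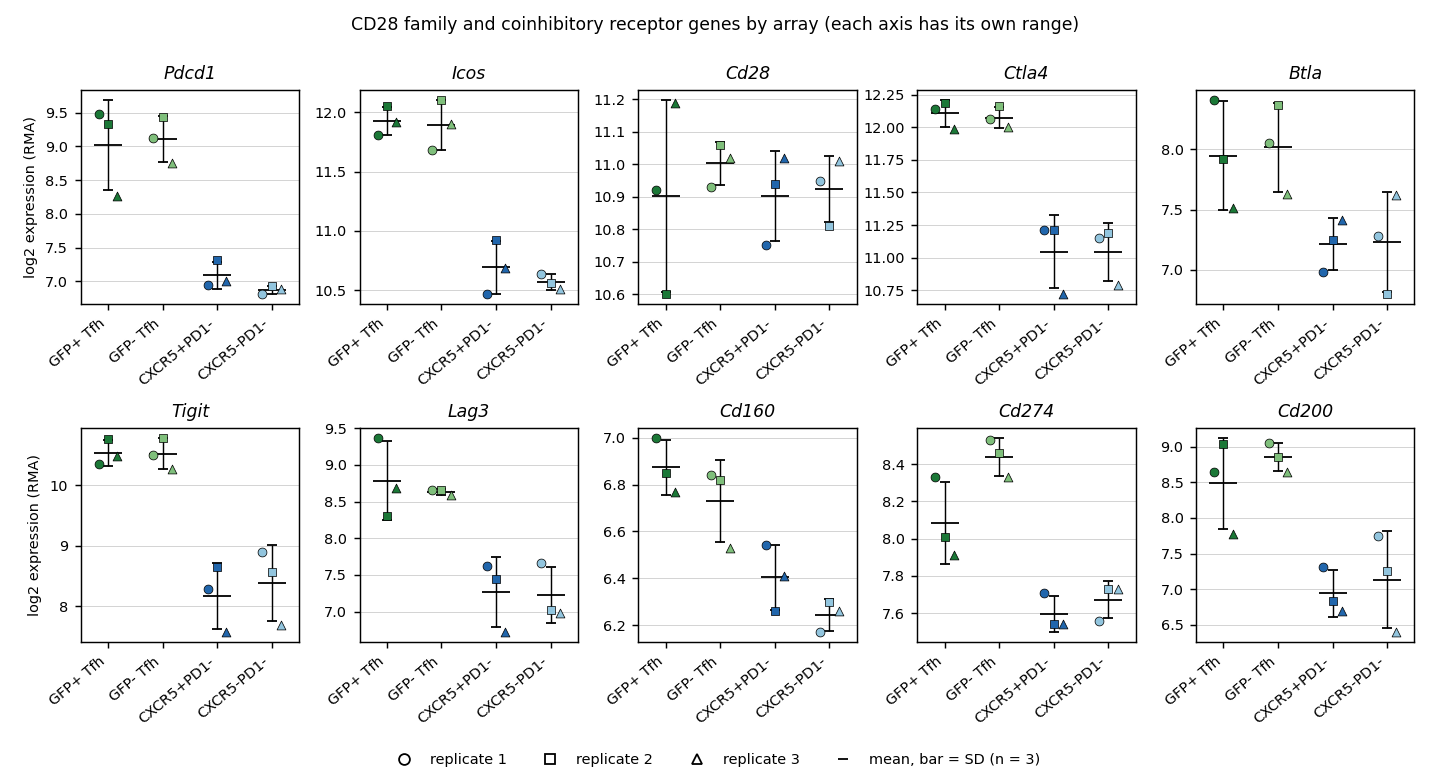
Log2 expression (RMA) of each of the 10 genes on the 12 arrays, by sort gate, with GFP+ Tfh and GFP- Tfh left of CXCR5+PD1- and CXCR5-PD1- cells. Points are arrays, with a circle, square and triangle for replicates 1, 2 and 3, the wide line is the group mean and the bar its SD (n = 3). Apart from Cd28, Btla and Cd160, every Tfh point lies above every PD1- point.

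The costimulatory receptors of the family went different ways. Icos, whose receptor sustains Tfh cells, stood at 11.81, 12.05 and 11.92 in GFP+ Tfh and 11.68, 12.10 and 11.90 in GFP- Tfh, against 10.47, 10.92 and 10.69 in CXCR5+PD1- cells and 10.64, 10.56 and 10.51 in CXCR5-PD1- cells. All 6 Tfh arrays were higher than all 6 PD1- arrays, with narrow groups. The difference was 1.28 ± 0.10 (SE), or 2.42-fold with a 95% interval of 2.07 to 2.84 (adjusted p = 1.11e-05), which is the smallest p of the 10 genes. Cd28, the gene for the classical costimulatory receptor, stood at 10.92, 10.60 and 11.19 in GFP+ Tfh and 10.93, 11.06 and 11.02 in GFP- Tfh, against 10.75, 10.94 and 11.02 in CXCR5+PD1- cells and 10.95, 10.81 and 11.01 in CXCR5-PD1- cells. The 4 groups of Cd28 overlapped throughout, and both its lowest and its highest value were GFP+ Tfh arrays. Its difference was 0.04 ± 0.10 (adjusted p = 0.899), with an interval of -0.19 to 0.27, so a change of the size seen for Icos lies outside it.

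Among the inhibitory receptors of the same family, Ctla4, whose protein takes CD80 and CD86 away from CD28, stood at 12.14, 12.19 and 11.99 in GFP+ Tfh and 12.06, 12.16 and 12 in GFP- Tfh, against 11.21, 11.21 and 10.72 in CXCR5+PD1- cells and 11.15, 11.19 and 10.79 in CXCR5-PD1- cells. The groups did not overlap, and the lowest value of each group was its replicate 3. Ctla4 rose by 1.05 ± 0.11, or 2.07-fold (1.75 to 2.45, adjusted p = 9.04e-05). Pdcd1 stood at 9.48, 9.33 and 8.26 in GFP+ Tfh and 9.13, 9.43 and 8.75 in GFP- Tfh, against 6.95, 7.31 and 7.0 in CXCR5+PD1- cells and 6.81, 6.93 and 6.88 in CXCR5-PD1- cells. Its groups stayed apart in the direction of the sort, with replicate 3 the lowest in both Tfh gates, and the measured gap was 2.09 ± 0.20.

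Btla, whose protein binds the herpesvirus entry mediator HVEM, stood at 8.41, 7.92 and 7.51 in GFP+ Tfh and 8.05, 8.37 and 7.63 in GFP- Tfh, against 6.98, 7.25 and 7.41 in CXCR5+PD1- cells and 7.28, 6.80 and 7.62 in CXCR5-PD1- cells. The groups overlapped, because CXCR5-PD1- replicate 3 reached the level of replicate 3 in both Tfh gates. Btla rose by 0.76 ± 0.19, or 1.69-fold (1.27 to 2.26, adjusted p = 0.0248). This call ended on leaving out GFP- Tfh replicate 1 (0.75) or 2 (0.67), CXCR5+PD1- replicate 1 (0.70) or 2 (0.77), or CXCR5-PD1- replicate 2 (0.65), with adjusted p up to 0.0659.

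Of the inhibitory receptors outside the CD28 family, Tigit, whose protein binds the poliovirus receptor PVR and competes there with the activating receptor CD226, stood at 10.34, 10.76 and 10.48 in GFP+ Tfh and 10.50, 10.78 and 10.27 in GFP- Tfh, against 8.29, 8.65 and 7.57 in CXCR5+PD1- cells and 8.90, 8.56 and 7.69 in CXCR5-PD1- cells. The Tfh and PD1- arrays lay far apart, and replicate 3 was the lowest of both PD1- groups. Tigit had the largest of the 10 differences, 2.25 ± 0.22, or 4.74-fold (3.37 to 6.66, adjusted p = 5.54e-05). Lag3, whose protein binds class II molecules, stood at 9.37, 8.30 and 8.69 in GFP+ Tfh and 8.66, 8.66 and 8.59 in GFP- Tfh, against 7.62, 7.45 and 6.72 in CXCR5+PD1- cells and 7.66, 7.02 and 6.98 in CXCR5-PD1- cells. The gates did not overlap, with GFP+ Tfh replicate 1 the highest array and CXCR5+PD1- replicate 3 the lowest. Lag3 rose by 1.47 ± 0.21, or 2.77-fold (2.03 to 3.79, adjusted p = 0.000699).

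Cd160, another receptor for HVEM, stood at 7.0, 6.85 and 6.77 in GFP+ Tfh and 6.84, 6.82 and 6.53 in GFP- Tfh, against 6.54, 6.26 and 6.41 in CXCR5+PD1- cells and 6.17, 6.30 and 6.26 in CXCR5-PD1- cells. GFP- Tfh replicate 3 fell among the PD1- values, so the gates overlapped by 1 array. Cd160 rose by 0.48 ± 0.09, or 1.39-fold (1.22 to 1.59, adjusted p = 0.00458). Of the 6 PD1- arrays all but CXCR5+PD1- replicate 1 were below the array median for Cd160, where RMA compresses differences.

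The ligand genes rose too. Cd274, which encodes the PD-1 ligand PD-L1, stood at 8.33, 8.01 and 7.91 in GFP+ Tfh and 8.53, 8.46 and 8.33 in GFP- Tfh, against 7.71, 7.54 and 7.54 in CXCR5+PD1- cells and 7.56, 7.73 and 7.73 in CXCR5-PD1- cells. All Tfh arrays exceeded all PD1- arrays, the GFP- Tfh arrays by the wider margin. Cd274 rose by 0.63 ± 0.09, or 1.54-fold (1.34 to 1.77, adjusted p = 0.00103). Cd200, whose protein signals to the inhibitory receptor CD200R on other cells, stood at 8.64, 9.03 and 7.78 in GFP+ Tfh and 9.05, 8.86 and 8.65 in GFP- Tfh, against 7.31, 6.83 and 6.69 in CXCR5+PD1- cells and 7.75, 7.25 and 6.40 in CXCR5-PD1- cells. The gates stayed just apart, at 7.78 in GFP+ Tfh replicate 3 and 7.75 in CXCR5-PD1- replicate 1. Cd200 rose by 1.63 ± 0.25, or 3.10-fold (2.12 to 4.53, adjusted p = 0.00129).

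**Figure D2:**
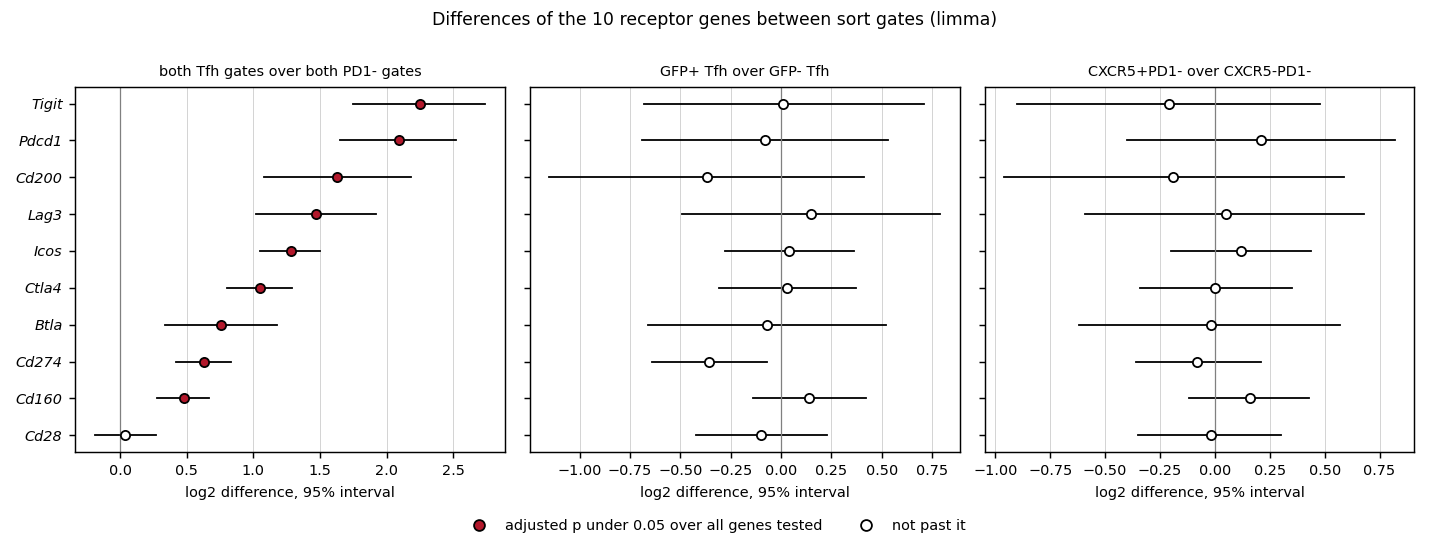
Log2 differences of the 10 genes with 95% intervals (limma) in 3 comparisons, ordered from Tigit to Cd28 by the difference between both Tfh gates and both PD1- gates. Filled points passed adjusted p under 0.05 over all genes tested. In the left panel 9 points are filled, and in the middle and right panels none is.

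The promoters of Tigit, Pdcd1 and Cd200, which had the largest differences among the genes with a promoter in the table used, are shown with that of Ctla4, whose 12 values followed those of Tigit most closely. Each is the 250 bases before the gene's start in RefSeq (GRCm38.p6), 5′ to 3′ on the gene's strand. Capitals mark GGAAA or its reverse complement TTTCC, the core letters bound by NFAT, a factor that calcium signals of the antigen receptor send to the nucleus.
Tigit: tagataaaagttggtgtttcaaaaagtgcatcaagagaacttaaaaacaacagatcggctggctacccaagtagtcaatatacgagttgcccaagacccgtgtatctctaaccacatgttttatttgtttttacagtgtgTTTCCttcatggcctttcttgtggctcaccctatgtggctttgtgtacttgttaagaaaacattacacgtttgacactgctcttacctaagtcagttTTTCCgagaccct
Pdcd1: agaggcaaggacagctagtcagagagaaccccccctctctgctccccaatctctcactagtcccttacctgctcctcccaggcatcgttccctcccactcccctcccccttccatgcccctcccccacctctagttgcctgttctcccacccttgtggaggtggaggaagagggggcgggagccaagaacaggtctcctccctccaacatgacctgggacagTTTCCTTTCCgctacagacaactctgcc
Cd200: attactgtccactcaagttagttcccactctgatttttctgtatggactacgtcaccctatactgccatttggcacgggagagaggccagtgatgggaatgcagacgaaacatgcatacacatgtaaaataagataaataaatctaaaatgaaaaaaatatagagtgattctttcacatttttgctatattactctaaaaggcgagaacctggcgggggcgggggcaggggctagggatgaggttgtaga
Ctla4: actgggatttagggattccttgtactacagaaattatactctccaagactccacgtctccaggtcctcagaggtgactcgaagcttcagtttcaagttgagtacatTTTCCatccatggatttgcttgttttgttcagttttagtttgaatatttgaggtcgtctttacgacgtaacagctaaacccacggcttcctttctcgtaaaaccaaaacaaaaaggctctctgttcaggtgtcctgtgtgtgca
They lie at chr16:43664185-43664434 (minus strand), chr1:94052554-94052803 (minus strand), chr16:45409054-45409303 (minus strand) and chr1:60908775-60909024 (plus strand) in the order printed. The letters occur at 2 places in the Tigit and the Pdcd1 sequence and at 1 in that of Ctla4, while Cd200 has 0, and in Pdcd1 the pair is end to end. Of the 10 genes 7 had a promoter in the table, and Cd160 had a further one. Of these 7 genes 5 held the letters in at least 1 promoter, and 55.6% of the 32851 promoters of the same length held them. The counts here and in the next sentences are by gene, and the shares by promoter. The E-box CANNTG, which reads alike on both strands, occurred in 6 of the 7 genes and in 66.2% of all promoters. CTTTG or CAAAG, the core of TCF and LEF sites, occurred in 4 of 7 and in 48.6% of all, and the AP-1 letters TGANTCA occurred in 0 of 7 and in 6.75% of all. Such matches describe letters and do not show a site in use.

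The genome sets several of these genes side by side. Cd28, Ctla4 and Icos are neighbours on chromosome 1 in this annotation, with 0 protein-coding genes between Cd28 and Ctla4 and 0 between Ctla4 and Icos. Ctla4 and Icos rose and Cd28 did not pass, as given above. Btla and Cd200 are likewise adjacent on chromosome 16, and both rose. Cd274 lies next to Pdcd1lg2 on chromosome 19, the gene for the other PD-1 ligand, PD-L2. Pdcd1lg2 stood at 7.08, 7.26 and 6.46 in GFP+ Tfh and 6.85, 7.0 and 7.11 in GFP- Tfh, against 6.36, 6.38 and 6.01 in CXCR5+PD1- cells and 6.45, 6.61 and 6.36 in CXCR5-PD1- cells. It rose by 0.60 ± 0.14 (adjusted p = 0.015), although GFP+ Tfh replicate 3 fell among the PD1- arrays. Pdcd1lg2 lay above the array median on 8 arrays, among them every Tfh array and no CXCR5+PD1- array. It thus passed the filter mainly through the groups in which it was higher.

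Each Tfh gate was then set against each PD1- gate to order the levels. These 4 comparisons share arrays. Pdcd1, Icos, Ctla4, Tigit, Lag3 and Cd200 rose in all 4 of them. The counts below include Pdcd1, whose rise describes the sort on PD-1. In GFP+ Tfh over CXCR5-PD1- cells 7 genes rose, against 2.45% of all genes, and in GFP- Tfh over CXCR5-PD1- cells 7 rose, against 2.22%. In GFP+ Tfh over CXCR5+PD1- cells 6 rose, against 2.58%, and in GFP- Tfh over CXCR5+PD1- cells 7 rose, against 2.33%. Cd28 and Btla passed in none of the 4; the Btla differences were 0.71 to 0.81 and its adjusted p was 0.157 to 0.177. The calls of Cd200 in all 4 comparisons and of Lag3 in GFP- Tfh over either PD1- gate ended on leaving out single arrays of those gates, with adjusted p up to 0.162 for Cd200 and 0.101 for Lag3; the arrays are named with the effects of processing. With the male arrays alone Lag3 passed in none of the 4 (adjusted p up to 0.164).

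Cd160 passed only in GFP+ Tfh over CXCR5-PD1- cells, with a difference of 0.63 ± 0.13 (adjusted p = 0.0122), and this call ended without CXCR5-PD1- replicate 1 (0.59, adjusted p = 0.0504). Against the same cells GFP- Tfh differed by 0.49 ± 0.13 in Cd160 (adjusted p = 0.058). Cd274 had the other pattern. It rose in GFP- Tfh, by 0.76 ± 0.13 over CXCR5-PD1- cells (adjusted p = 0.00603) and 0.84 ± 0.13 over CXCR5+PD1- cells (adjusted p = 0.00359). The GFP+ Tfh differences in Cd274 were 0.41 ± 0.13 (adjusted p = 0.0976) and 0.49 ± 0.13 (adjusted p = 0.0519), and both passed without GFP+ Tfh replicate 3 (0.50 and 0.57, adjusted p = 0.0496 and 0.0253). Passing against 1 gate and missing against another does not show that gates differ, and the direct comparison of the Tfh gates follows.

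The comparison of GFP+ Tfh with GFP- Tfh asks what goes with the GFP signal of the interleukin 21 reporter among Tfh cells. RNA of the gene itself, Il21, was high whether or not GFP was present, with means of 10.6 (GFP+) and 9.96 (GFP-). The PD1- means were 6.5 (CXCR5+) and 6.64 (CXCR5-). Between the Tfh gates Il21 differed by 0.63 ± 0.56 and was not called (adjusted p = 0.824 in limma). Its lowest GFP+ value, 10.25, lay just above its highest GFP- value, 10.17. The GFP- gate was thus not one without Il21 RNA. None of the 10 genes passed in limma, where 0.0445% of all genes did, and 1 of the 10, Cd274, had an unadjusted p under 0.05, as did 7.37% of all genes. Cd274 averaged 8.08 ± 0.22 in GFP+ Tfh and 8.44 ± 0.10 in GFP- Tfh (SD, n = 3 each), a difference of -0.36 ± 0.13 (adjusted p = 0.569), and the groups touched at 8.33. Tigit averaged 10.53 ± 0.21 and 10.52 ± 0.25 in the same order, a difference of 0.01 ± 0.32 with an interval of -0.68 to 0.71. The intervals were narrower for Ctla4 (-0.31 to 0.37), Icos (-0.28 to 0.36) and Cd28 (-0.42 to 0.23) and widest for Cd200 (-1.15 to 0.41). The median difference was -0.03 over the 10 genes and -0.018 over all genes.

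CXCR5+PD1- and CXCR5-PD1- cells, whose labels differ in CXCR5, were compared next. Limma called 0 of the 10 genes and 0% of all genes, and at an unadjusted p under 0.05 there were 0 of the 10 and 1.22% of all genes. Pdcd1 was the 1 gene of the 10 whose groups did not overlap upward, a state found in 5.37% of all genes, at 6.95 to 7.31 in CXCR5+PD1- cells and 6.81 to 6.93 in CXCR5-PD1- cells. Its difference was 0.21 ± 0.28. Cd160 differed by 0.16 ± 0.13 and Tigit by -0.21 ± 0.32. For Icos, Ctla4, Tigit, Lag3 and Cd200 each Tfh gate was thus above each PD1- gate by the test, with the limits given for Lag3 and Cd200, and no difference was called inside either pair. Pdcd1 had the same order, which describes the sort on PD-1. Btla, Cd160 and Cd274 have no such order over single gates, since not all of their 4 comparisons passed.

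The female and male arrays were also read apart, and no difference between them in the Tfh over PD1- gap passed the test. Btla averaged 7.57 in the 2 female Tfh arrays and 7.52 in the 2 female PD1- arrays, a difference of 0.05, and 8.19 in the 4 male Tfh arrays and 7.07 in the 4 male PD1- arrays, a difference of 1.11. Within replicate 3 every Btla difference between a Tfh and a PD1- gate was -0.11 to 0.22, and within replicates 1 and 2 it was 0.67 to 1.58. Pdcd1 differed by 1.57 in female and 2.35 in male arrays, and Tigit the other way, by 2.75 and 1.99. As an interaction over all genes, the female minus male gap was -1.06 ± 0.27 for Btla, -0.78 ± 0.24 for Pdcd1 and 0.75 ± 0.25 for Tigit, each with adjusted p = 0.3 in limma. No gene passed, and 15.2% of all genes, these 3 among them, had an unadjusted p under 0.05. Each group has 1 female array, so sex and replicate 3 cannot be told apart.

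**Figure D3:**
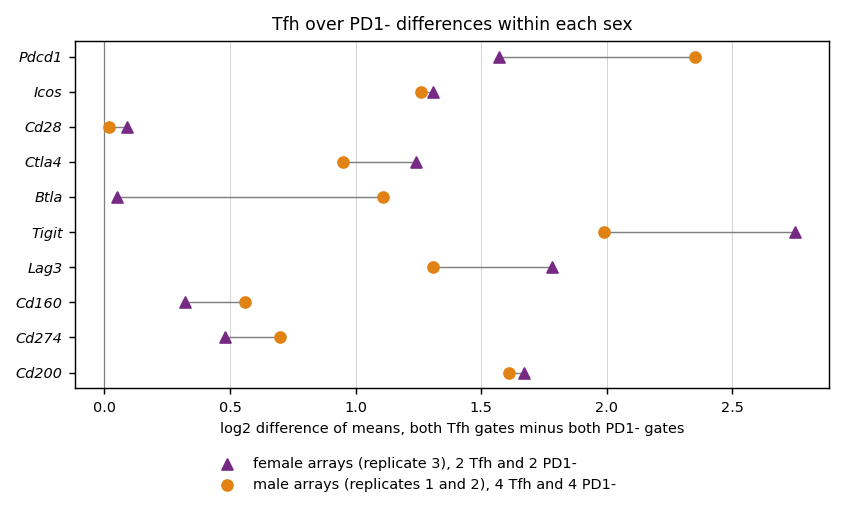
Log2 differences of means, both Tfh gates minus both PD1- gates, in the female arrays (triangles, replicate 3, 2 Tfh and 2 PD1-) and the male arrays (circles, replicates 1 and 2, 4 Tfh and 4 PD1-). No error bars are drawn. Btla lies at 0.05 in female and 1.11 in male arrays, and Icos at 1.31 and 1.26.

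Across the 12 arrays, values of Ctla4 and Tigit had a Pearson correlation of 0.989, the highest each had with any gene tested. This and the correlations below describe arrays that share 1 normalisation and fall into 2 levels, Tfh and PD1-, so they mostly restate that step. Next to Ctla4 came Eea1 (0.987), an early endosome gene, and Il21 (0.984), and next to Tigit came Eea1 (0.986) and Ikzf2 (0.977), which encodes the transcription factor Helios. Pdcd1 was most like Tox (0.988), a regulator of T cells under lasting stimulation, Ptpn11 (0.984) and Ptpn13 (0.978). Icos was most like Impact (0.986), Malt1 (0.98) and Hif1a (0.979), and Lag3 most like Igf1r (0.978), Slamf6 (0.968) and Ctsb (0.967). Cd200 was nearest Il2rb (0.968), Cd274 nearest Itgb8 (0.973), Btla nearest Aim2 (0.963) and Cd160 nearest Ntrk3 (0.947). Cd28, which did not take the step, had correlations of -0.17 to 0.17 with the other 9 genes and was most like Lsm5 (0.924).

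The ligands and counter-receptors of these receptors are mostly genes of other cells. Of 13 on the array 6 passed the filter, and 1 rose and 1 fell in Tfh over PD1- cells, with a median difference of 0.03. Over all genes tested 5.05% were higher and 5.33% lower in that comparison, shares that also stand beside the list counts below. Cd80, Cd86, Icosl, Tnfsf14, Nectin3, Cd200r1 and Fgl1 lay above the array median on 0 arrays and were not tested. Rgmb, which encodes a binding partner of PD-L2, fell by 0.51 on the log2 scale (SE 0.09, adjusted p = 0.00378), at 6.63 to 7.05 in the 6 Tfh arrays and 7.14 to 7.71 in the 6 PD1- arrays. Tnfrsf14, the gene for HVEM, differed by 0.28 ± 0.14 (adjusted p = 0.301) and lay at 8.73 or above on every array.

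Tigit shares its ligands with other receptors. Cd226, the activating receptor for the same ligand, stood at 6.95, 6.70 and 6.66 in GFP+ Tfh and 8.24, 7.79 and 8.10 in GFP- Tfh, against 8.44, 8.46 and 7.94 in CXCR5+PD1- cells and 8.88, 8.45 and 7.70 in CXCR5-PD1- cells. Every GFP+ Tfh array lay below all 9 others. Cd96, a further receptor for PVR, stood at 8.64, 8.08 and 8.02 in GFP+ Tfh and 9.73, 9.02 and 9.21 in GFP- Tfh, against 9.27, 9.15 and 9.26 in CXCR5+PD1- cells and 9.59, 9.33 and 8.97 in CXCR5-PD1- cells, with the same separation. Both genes passed in GFP+ Tfh against either PD1- gate, where 3.75% of all genes were lower than in CXCR5-PD1- cells and 3.31% lower than in CXCR5+PD1- cells. Cd226 fell in GFP+ Tfh by 1.58 ± 0.26 on the log2 scale relative to CXCR5-PD1- cells (adjusted p = 0.00399) and by 1.51 ± 0.26 relative to CXCR5+PD1- cells (adjusted p = 0.00555). Cd96 fell in GFP+ Tfh by 1.05 ± 0.22 (adjusted p = 0.016) and 0.98 ± 0.22 (adjusted p = 0.0234) in the same comparisons. The Cd96 calls ended on leaving out GFP+ Tfh replicate 2, CXCR5-PD1- replicate 1 or 2, GFP+ Tfh replicate 3 or any CXCR5+PD1- array from the comparison concerned (-1.03 to -0.86, adjusted p up to 0.0867), and with the male arrays alone (-1.09 and -0.85, adjusted p = 0.0736 and 0.15), while those of Cd226 held under every alternative run.

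In GFP- Tfh neither passed against either PD1- gate, with Cd226 at -0.30 ± 0.26 and -0.24 ± 0.26 and Cd96 at 0.02 ± 0.22 and 0.09 ± 0.22 over CXCR5-PD1- and CXCR5+PD1- cells. The direct difference of GFP+ Tfh over GFP- Tfh was -1.27 ± 0.26 for Cd226 and -1.07 ± 0.22 for Cd96, both with adjusted p = 0.206, so it did not pass over all genes. Without GFP+ Tfh replicate 1 both passed, at -1.36 for Cd226 (adjusted p = 0.0469) and -1.27 for Cd96 (adjusted p = 0.0256). In that fit 237 of all genes passed, against 5 in the full set. In the full set 5.65% of all genes had groups apart in this direction. Tigit itself differed by 0.01 in that comparison. Pvr, the shared ligand, differed by -0.60 ± 0.19 in Tfh over PD1- cells (adjusted p = 0.0669), and Nectin2, another ligand, by 0.12 ± 0.09.

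**Figure D4:**
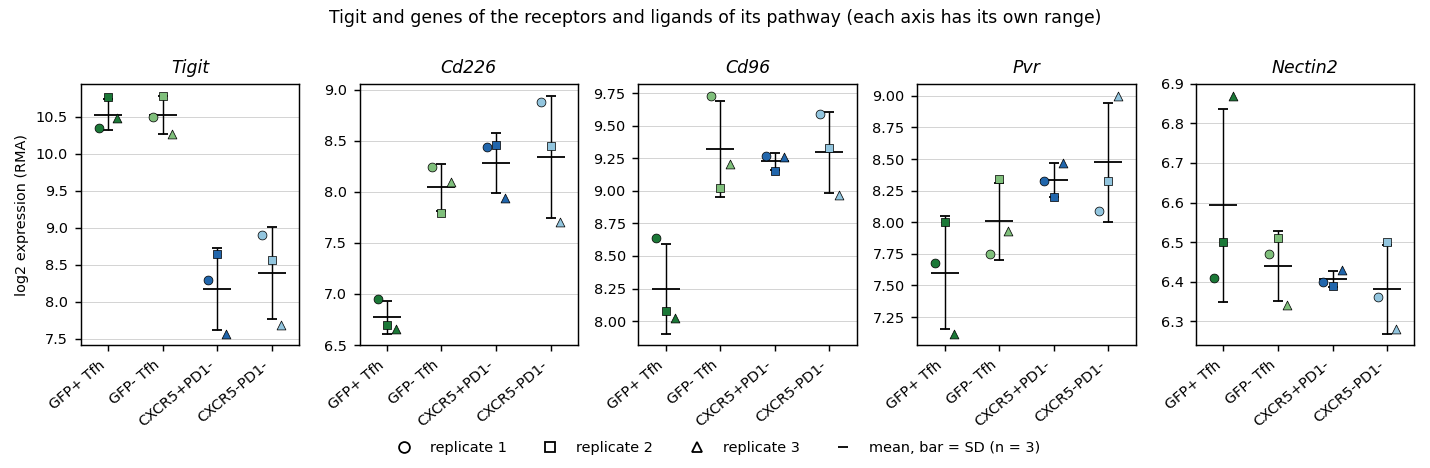
Log2 expression (RMA) of Tigit, the receptors Cd226 and Cd96 and the ligands Pvr and Nectin2 on the 12 arrays, by sort gate. Points are arrays by replicate, the wide line is the mean and the bar the SD (n = 3). Tigit is alike in GFP+ and GFP- Tfh (means 10.53 and 10.52), while Cd226 has means of 6.77 and 8.04.

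Of the other coinhibitory and paired receptors, 15 of 16 were on the array and 9 were tested, of which 2 rose and 2 fell in Tfh over PD1- cells with a median of -0.08. Nt5e, which encodes the adenosine-producing enzyme CD73, rose by 1.93 ± 0.19 (adjusted p = 5.58e-05), and the adhesion receptor gene Cd6 rose by 0.72 ± 0.14 (adjusted p = 0.00653). Cd226 (-0.91 ± 0.18) fell, and so did Cd47 (-0.81 ± 0.17, adjusted p = 0.0107), whose protein protects cells from phagocytosis. Between GFP+ Tfh and GFP- Tfh 0 of the 9 passed, where 0.0445% of all genes did, with a median of -0.22. Havcr2, Cd244a, Lair1, Klrg1, Ceacam1 and Entpd1 did not pass the filter.

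RNA of genes for proteins that bind the receptor tails or carry the receptors to the surface changed in both directions. Of 27 listed genes 23 were on the array and 22 were tested, of which 6 rose and 5 fell in Tfh over PD1- cells, with a median of 0.05. Ptpn11, which encodes SHP-2, a phosphatase that binds the PD-1 tail, rose by 1.49 ± 0.18 (adjusted p = 0.000247), at 9.12 to 10.12 in the 6 Tfh arrays and 7.98 to 8.39 in the 6 PD1- arrays. Its relative Ptpn6, the gene for SHP-1, differed by -0.29 ± 0.10 (adjusted p = 0.108). Fyn, a kinase gene, and Dgkz, one of the kinase genes that end diacylglycerol signals, rose by 0.85 ± 0.12 and 0.86 ± 0.11 (adjusted p = 0.000825 and 0.000269), while Dgka, of the same enzyme family, fell by 0.69 on the log2 scale (SE 0.08, adjusted p = 0.000159).

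Of the genes that serve CTLA-4 and CD28 themselves, Lrba, whose protein spares CTLA-4 from lysosomal breakdown, rose by 0.64 ± 0.16 (adjusted p = 0.0218). Trat1, an adaptor gene whose protein helps carry CTLA-4 to the surface, stood at 6.55, 5.18 and 5.61 in GFP+ Tfh and 7.41, 7.10 and 7.64 in GFP- Tfh, against 8.41, 8.72 and 9.19 in CXCR5+PD1- cells and 8.35, 8.38 and 9.00 in CXCR5-PD1- cells. The GFP+ Tfh, GFP- Tfh and PD1- values formed 3 steps with no overlap. Trat1 fell by 2.09 on the log2 scale in Tfh over PD1- cells (SE 0.23, adjusted p = 0.000117). Over GFP- Tfh, GFP+ Tfh differed in it by -1.60 ± 0.33 (adjusted p = 0.206) and did not pass, but it did without GFP+ Tfh replicate 1 (-1.99, adjusted p = 0.0126), where 237 of all genes passed. Grap2, the gene for the adaptor GADS that binds CD28, fell by 1.49 on the log2 scale (SE 0.25, adjusted p = 0.00248), at 7.27 to 9.15 in Tfh arrays and 10.03 to 10.30 in PD1- arrays, with GFP+ Tfh replicate 3 far below the rest. The others that changed were Inpp5d and Rasa1, which rose, and Dok2 and Pik3cd, which fell, each by 0.37 to 0.55. The calls of Lrba, Inpp5d and Pik3cd ended on leaving out single arrays, with adjusted p up to 0.0586, 0.0957 and 0.0649. Between the Tfh gates 0 of the 22 passed, where 0.0445% of all genes did.

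**Figure D5:**
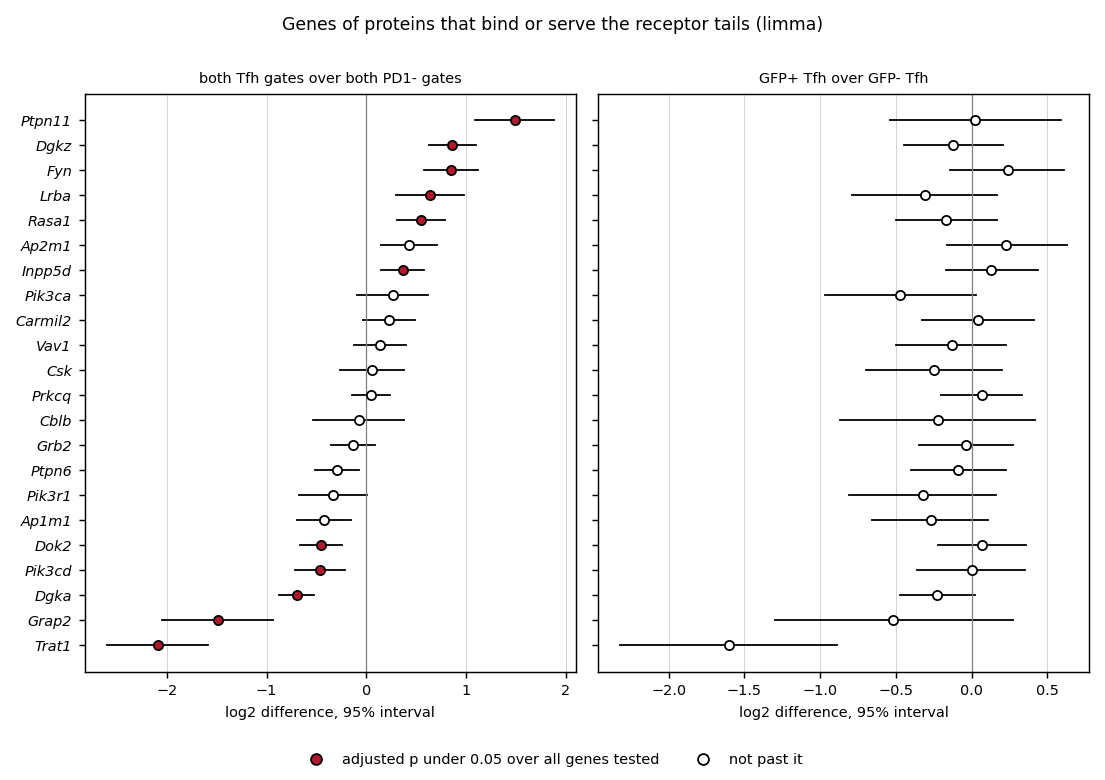
Log2 differences with 95% intervals (limma) of the 22 tested genes for proteins that bind or serve the receptor tails, in both Tfh gates over both PD1- gates (left) and GFP+ Tfh over GFP- Tfh (right). Filled points passed adjusted p under 0.05 over all genes tested. On the left 6 filled points lie above 0 and 5 below, from Ptpn11 at 1.49 to Trat1 at -2.09, and on the right none is filled.

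CTLA-4, TIGIT and ICOS are also abundant on regulatory T cells, so markers of those cells were read beside them. Of 11 regulatory markers, all tested, 2 rose and 2 fell in Tfh over PD1- cells. Ikzf2 rose by 1.87 ± 0.17 and Tnfrsf4 by 0.64 ± 0.14, while Il2ra fell by 1.74 on the log2 scale (SE 0.20). Foxp3, which defines the lineage, fell by 0.47 (SE 0.13, adjusted p = 0.0348). This Foxp3 call ended on leaving out any of 7 arrays (adjusted p up to 0.0897). With gates taken singly, the falls of Il2ra and Foxp3 were called only for the GFP+ gate. Il2ra passed there over CXCR5-PD1- (-3.26) and CXCR5+PD1- cells (-2.94). Foxp3 passed there only over CXCR5-PD1- cells (-0.92, adjusted p = 0.0098). The GFP- gate passed for neither gene. In the same order, its Il2ra differences were -0.54 ± 0.28 and -0.22 ± 0.28, and those of Foxp3 were -0.28 ± 0.18 and -0.01 ± 0.18. The Foxp3 arrays spanned 6.73 to 7.27 for GFP+ Tfh and 7.51 to 7.84 for GFP- Tfh, against 7.51 to 7.89 in CXCR5+PD1- cells and 7.67 to 8.15 in CXCR5-PD1- cells, above the array median throughout. The median of the 11 markers relative to the array median was 0.39 to 0.67 in GFP+ Tfh and 1.20 to 1.72 in GFP- Tfh, against 1.06 to 1.45 in CXCR5+PD1- cells and 1.28 to 1.69 in CXCR5-PD1- cells. Their summed linear signal, in which the brightest probe sets weigh most, was 3846 to 4088 in GFP+ Tfh and 4432 to 5031 in GFP- Tfh, against 2585 to 2989 in CXCR5+PD1- cells and 2719 to 3537 in CXCR5-PD1- cells. Without Ikzf2 the sum of the other 10 was 1554 to 1968 in GFP+ Tfh and 2506 to 2824 in GFP- Tfh, against 2223 to 2254 in CXCR5+PD1- cells and 2209 to 2710 in CXCR5-PD1- cells, so the higher sum of GFP+ Tfh over PD1- cells was that of Ikzf2. In GFP+ Tfh over GFP- Tfh Il2ra fell by 2.72 on the log2 scale (SE 0.28, adjusted p = 0.00451), and 0 of the other 10 passed, where 0.0445% of all genes did. The median difference of the 11 was -0.46. Foxp3 (-0.64), Il10 (-1.09), Itgae (-1.34), Lrrc32 (-0.46) and Nrp1 (-0.46) also had groups apart and lower, as did 5.65% of all genes. Tnfrsf4, Tnfrsf18 and Gpr83 were lower with overlap, and Ikzf2 (0.08) and Ikzf4 (0.07) were higher with overlap. The Il2ra call ended with the male arrays alone (-2.46, adjusted p = 0.0954) and with only these 2 groups fitted (adjusted p = 0.254), while Ctla4, Tigit and Icos differed by 0.03, 0.01 and 0.04. The part of regulatory cells in the levels of the 10 genes was not tested.

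Markers of other cells were read in the same way. In the B cell list 11 of 12 genes were on the array and 4 were tested, of which Pax5 rose by 0.30 ± 0.07 (adjusted p = 0.0193), a call that ended on leaving out single PD1- arrays (adjusted p up to 0.056). Pax5 lay above the array median on 3 arrays, all of them GFP+ Tfh, so it entered the test through the group in which it was highest. Ms4a1, which marks B cells, and Csf1r, which marks macrophages, lay above the array median on 0 arrays. In the germinal centre B and plasma cell list 0 of 5 tested passed, and in the myeloid list 0 of 3, although Irf4, Fas, Xbp1 and the myeloid gene Cst3 lay above the array median on all 12 arrays. The myeloid gene Lyz2 had values of 6.27 to 7.64 in GFP+ Tfh and 5.56 to 5.83 in GFP- Tfh, against 5.44 to 5.92 in CXCR5+PD1- cells and 5.59 to 7.10 in CXCR5-PD1- cells. Lyz2 lay above the array median on 3 arrays, GFP+ Tfh replicates 1 and 2 and CXCR5-PD1- replicate 2. It thus entered the test mainly through the group in which it was highest, and was not tested without GFP+ Tfh replicate 1 or 2. Lyz2 rose in GFP+ Tfh over CXCR5+PD1- cells by 1.48 ± 0.38 (adjusted p = 0.0447), a call that ended on leaving out any CXCR5+PD1- array (adjusted p up to 0.152), and Pax5 rose in GFP+ Tfh over CXCR5-PD1- cells by 0.47 ± 0.10 (adjusted p = 0.0171), a call that ended without CXCR5-PD1- replicate 1 or 3 (adjusted p up to 0.0815). In the CD8, NK and gamma delta T cell list Cd8b1 and Prf1 fell by 0.46 and 0.62 on the log2 scale and 5 others did not pass, the Cd8b1 call ending on leaving out single arrays of every gate (adjusted p up to 0.109); the summed linear signal of its 10 genes was 622 to 672 in GFP+ Tfh and 784 to 834 in GFP- Tfh, against 839 to 1311 in CXCR5+PD1- cells and 891 to 1333 in CXCR5-PD1- cells. Prf1 lay above the array median on all 12 arrays and Gzma on 11. The share of any of these cells in the values above was not tested.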

How the data were processed

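Per the submitters' processing notes, the deposited table holds log2 values of 34760 probe sets on 12 Affymetrix arrays, which the authors made with RMA in oligo. RMA equalises the arrays' distributions, so a shift of most genes is removed, and low signals are compressed. Versions and genome build are not given in the sources used here. Array medians were 6.34 to 6.45. The number of arrays limits the precision.

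Probe sets with 1 gene symbol (21640) were named from the platform annotation and the RefSeq gene table of GRCm38.p6; of several per gene the one with the highest mean was used. A gene was tested if above the array median on at least 3 arrays. All 12 arrays entered 1 limma fit (3.58.1, R 4.3.3; lmFit, eBayes; 8 residual degrees of freedom) with Benjamini-Hochberg adjustment over 11240 genes at 0.05. Called means past that threshold. The code was tested on simulated data.

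The 10 genes, the gene lists and the rule for named genes (up to 4 of a list by smallest p, all that passed where at most 5 did, the 3 most alike to each gene) were chosen with earlier results of these data known. Outside this rule, Ptpn6, Lrba, Grap2, Pik3cd, Lrrc32, Nrp1, Tnfrsf18, Gpr83, Ikzf4, Ms4a1, Csf1r, Irf4, Fas, Xbp1, Cst3, Gzma and the genes listed as not passing the filter were named after their values were seen. Titles number replicates 1 to 3 without saying what the numbers mark. Deviations of same-numbered arrays correlated at 0.21 to 0.353 in CXCR5+PD1- over CXCR5-PD1- cells, so the numbers may pair those arrays. Each other pair of groups had at least 1 correlation below 0.1. The sex of the arrays follows the replicate number in every group, so the numbers may also pair arrays across all gates. The main fit held no replicate term and so paired no arrays, and the replicate block was run as an alternative. Alternatives varied 1 choice at a time (filter, probe set rule, normalisation, weights, moderation, groups fitted, sex or replicate block) or left out each array in turn. The male arrays alone and the sex interaction were added after seeing the data.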

Additional observations from a re-analysis of the deposited data

How the results depend on the processing

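No called difference of the 10 genes changed sign under the alternatives run; uncalled ones of up to 0.21 in size did so in 34 of 1232 values. For both Tfh gates over both PD1- gates the count of 9 stayed at 9, except 8 with a filter at the 70th percentile, where Cd160 was not tested, and 8 to 9 on leaving out each array. It stayed at 0 in GFP+ Tfh over GFP- Tfh and in CXCR5+PD1- over CXCR5-PD1- cells under all alternatives run. In GFP+ Tfh over CXCR5-PD1- cells the count of 7 was 4 with only the groups compared (fewer arrays for the spread) and 6 to 8 on leaving out arrays. Leaving out arrays gave 5 to 7 for GFP- Tfh over CXCR5-PD1- cells, 5 to 8 for GFP+ Tfh over CXCR5+PD1- cells (4 with only the groups compared) and 5 to 7 for GFP- Tfh over CXCR5+PD1- cells. The replicate block gave 9, 0, 0, 7, 7, 6 and 7 genes in the 7 comparisons, as without it, and changed no call of these genes.

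Between single gates, Lag3 lost its call in GFP- Tfh over either PD1- gate without any 1 array of these gates but replicate 1 of the PD1- gate (1.30 to 1.44 over CXCR5-PD1- cells and 1.10 to 1.46 over CXCR5+PD1- cells). Cd200 lost its call in GFP+ Tfh over either PD1- gate without GFP+ replicate 1 or 2 or replicate 2 or 3 of that PD1- gate (0.99 to 1.41 over CXCR5-PD1- and 1.26 to 1.48 over CXCR5+PD1- cells), in GFP- Tfh over CXCR5-PD1- cells without replicate 1 or 2 of GFP- Tfh or 2 or 3 of CXCR5-PD1- cells (1.35 to 1.78), and in GFP- Tfh over CXCR5+PD1- cells without GFP- replicate 1 or CXCR5+PD1- replicate 2 or 3 (1.78 to 1.85). Without GFP+ replicate 3 Cd274 passed in GFP+ Tfh over CXCR5-PD1- (0.50) and CXCR5+PD1- cells (0.57), and Cd160 over CXCR5+PD1- cells (0.52). Cd160 passed in GFP- Tfh over CXCR5-PD1- cells without GFP- replicate 3 (0.59) and lost its call in GFP+ Tfh over these without CXCR5-PD1- replicate 1 (0.59). Under the alternatives other than leaving out 1 array, 14 of 752 differences of the 10 genes lost and 16 gained a call. Those lost were Lag3 with the male arrays alone (all 4 comparisons) or only the groups compared (GFP+ Tfh over either PD1- gate), Cd200 in GFP+ Tfh over either PD1- gate with only the groups compared or 1 weight per group, and over CXCR5-PD1- cells without a filter, and Cd160 in GFP+ Tfh over CXCR5-PD1- cells with 1 weight per group, the male arrays or only the groups compared. Those gained were of Btla, Cd160 and Cd274. Of the list genes named, these lost calls in Tfh over PD1- cells: Inpp5d, Foxp3 and Cd8b1 with 1 weight per group (adjusted p = 0.06, 0.0502 and 0.0882), Inpp5d and Foxp3 with the replicate block (0.05 and 0.055), Inpp5d and Cd8b1 with cyclic loess (0.0529 and 0.0503), Inpp5d, Pik3cd and Cd8b1 with the male arrays (0.0699, 0.0622 and 0.112), and Cd8b1 without a filter (0.0638) or with sex as a block (0.0562). Cd96 in GFP+ Tfh over CXCR5-PD1- and CXCR5+PD1- cells was lost with 1 weight per group (0.0719 and 0.085) and only the groups compared (0.0777 and 0.0553). Lyz2 was lost with 1 weight per group (0.129), cyclic loess (0.0562) and no filter (0.0674), and Pax5 in GFP+ Tfh over CXCR5-PD1- cells with 1 weight per group (0.0952) and only the groups compared (0.151). With 1 weight per array Cd96 and Trat1 passed in GFP+ over GFP- Tfh (0.0324 and 0.0224). The causes were not tested.

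Counts over all genes moved more: the 1167 called for Tfh over PD1- cells became 1981 with a weight per array, and the 5 of GFP+ over GFP- Tfh became 95 with that weight, 237 without GFP+ replicate 1, 3 with a weight per group or without GFP- replicate 1, and 0 with the male arrays or only the groups compared. Against CXCR5-PD1- cells the 697 genes of GFP+ Tfh ranged over 263 to 1411 and the 429 of GFP- Tfh over 227 to 912; against CXCR5+PD1- cells the 662 of GFP+ Tfh ranged over 234 to 1437 and the 422 of GFP- Tfh over 214 to 1042. Signals near the array median limit Cd160.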
